A study of Mus musculus with 8 samples.

Results

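The genes described here are 45 genes of mitosis, covering entry into mitosis, the spindle, the kinetochore, the spindle checkpoint, the start of anaphase and the final cleavage of the cell. Each was chosen by name and read from the probe set whose annotation gave its symbol alone, with the highest mean over the 8 arrays where there were several. Of the 45 genes, 43 were measured in this way, out of 22180 genes with a symbol of their own on the arrays, each of the 43 by a single probe set, and all 43 passed the filter on dim genes. Ccnb1 and Ccnf, which encode cyclin B1 and the F-box protein cyclin F, were not analysed here, because no probe set in the annotation used named either of them alone.

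The arrays held RNA from whole medulloblastomas of mice at postnatal day 15, 4 with and 4 without deletion of Bcl2l1, each from 1 animal. The first group had the genotype Math1-Cre/SmoM2/Bcl2l1 f/f, in which Cre recombines the floxed Bcl2l1 alleles, and the control group had the genotype Math1-Cre/SmoM2, with wild-type Bcl2l1. Both groups therefore carried the same tumour-driving alleles, an activated Smoothened (SmoM2) switched on by Cre from the promoter of Math1 (Atoh1), a gene of granule neuron progenitors of the cerebellum, so that cells outside the lineage that expresses this Cre keep Bcl2l1. Bcl2l1 encodes BCL-xL, an inhibitor of apoptosis, and the mice received no treatment.

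In mitosis, the kinase CDK1 with its cyclin partners, and then the Aurora and Polo-like kinases, condense the chromosomes and build the spindle, and kinetochores attach each chromosome to microtubules. The spindle checkpoint holds the anaphase-promoting complex back until every kinetochore is attached, after which sister chromatids separate and the cell divides. Transcripts of most of these genes are made late in the cell cycle, and in the postnatal cerebellum and in Sonic hedgehog medulloblastoma they are known to mark the dividing granule neuron progenitors. In RNA from whole tumours, a larger share of dividing cells and more transcript per dividing cell cannot be told apart.

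The values are log2 RMA expression values, in which 1 unit is a doubling, and the array number limits their precision. Bcl2l1 itself had 5.46, 5.46, 5.69 and 5.32 in Bcl2l1-deleted replicates 1 to 4, against 6.88, 6.57, 6.93 and 6.98 in control replicates 1 to 4 (fitted log2 change -1.36, SE 0.16, limma adjusted p = 0.00509), from a single probe set whose place relative to the deleted part is not known here. Control replicate 2 stood apart, with correlations of 0.881 to 0.925 with the other arrays over all probe sets, while the other 7 arrays correlated at 0.956 or more with each other. The interquartile range of the values of all named genes was 3.59 to 3.66 log2 units on the Bcl2l1-deleted arrays, against 3.29 to 3.50 on controls 1, 3 and 4 and 2.40 on control replicate 2, and the median of 1394 olfactory and vomeronasal receptor genes, mostly background in this tissue, was 2.79 to 2.92 on the Bcl2l1-deleted arrays, against 2.94 to 3.09 on those controls and 3.60 on control replicate 2. Neither measure overlapped between the groups (exact permutation test over 70 regroupings, two-sided, p = 0.0286 for each, the smallest value possible, and 0.0286 over 35 regroupings without control replicate 2). Leaving out control replicate 2 therefore does not remove the difference between the groups in these measures. Because that array stood apart, results are given with and without it.

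In the Bcl2l1-deleted tumours Aurkb, Bub1b, Mad2l1, Cenpa, Ndc80, Nuf2, Cdc20 and Kif2c rose, 8 of the 43 measured mitosis genes (18.6%) at a limma adjusted p under 0.05 over all 15526 genes tested, and none fell. Over all genes tested, 4.93% rose and 1.60% fell at that threshold, 765 and 248 genes. The 8 genes span the chromosomal passenger complex, the checkpoint, the kinetochore, the trigger of anaphase and the spindle, and their fitted changes correspond to 1.47-fold to 1.74-fold higher levels. The other 35 genes did not pass. At an unadjusted limma p under 0.05 there were 30 of the 43 (69.8%), against 30.5% of all genes tested. Counts at an unadjusted p given below by role are to be read against that share. In 26 of the 43 genes (60.5%) every Bcl2l1-deleted array lay above every control array, where 19.0% of all genes tested showed this, and in none did every Bcl2l1-deleted array lie below every control (4.46% of all genes). Counts given below by role of genes whose groups did not overlap are to be read against the 19.0%, as all of these genes were higher in the Bcl2l1-deleted tumours. The highest of the 8 arrays was a Bcl2l1-deleted one for each of the 43 genes. The share of all genes with this was not counted, so the count cannot be called particular to the mitosis genes. A fitted change above 0 was common, in 10470 of the 15526 genes tested.

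The median gene of all those tested was 0.17 higher in the Bcl2l1-deleted tumours, so changes are given below relative to it unless called fitted, while the SE and the adjusted p are those of the fitted change. The median relative change of the mitosis genes was 0.36, their quartiles were 0.22 and 0.51, and 40 of 43 were above 0. The mean levels of the mitosis genes lay between 5.98 and 10.90, and among the 9816 genes in that range the median relative change was 0.09 and 61.1% were above 0, with 5.26% higher at the threshold and 23.9% with every Bcl2l1-deleted array above every control. Without control replicate 2, where the median gene tested was 0.08 higher in the Bcl2l1-deleted tumours, the median relative change of the mitosis genes was 0.31, 16 rose against 8.95% of all genes, and the number with every Bcl2l1-deleted array above every control was again 26, against 20.2% of all genes.

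**Figure D1:**
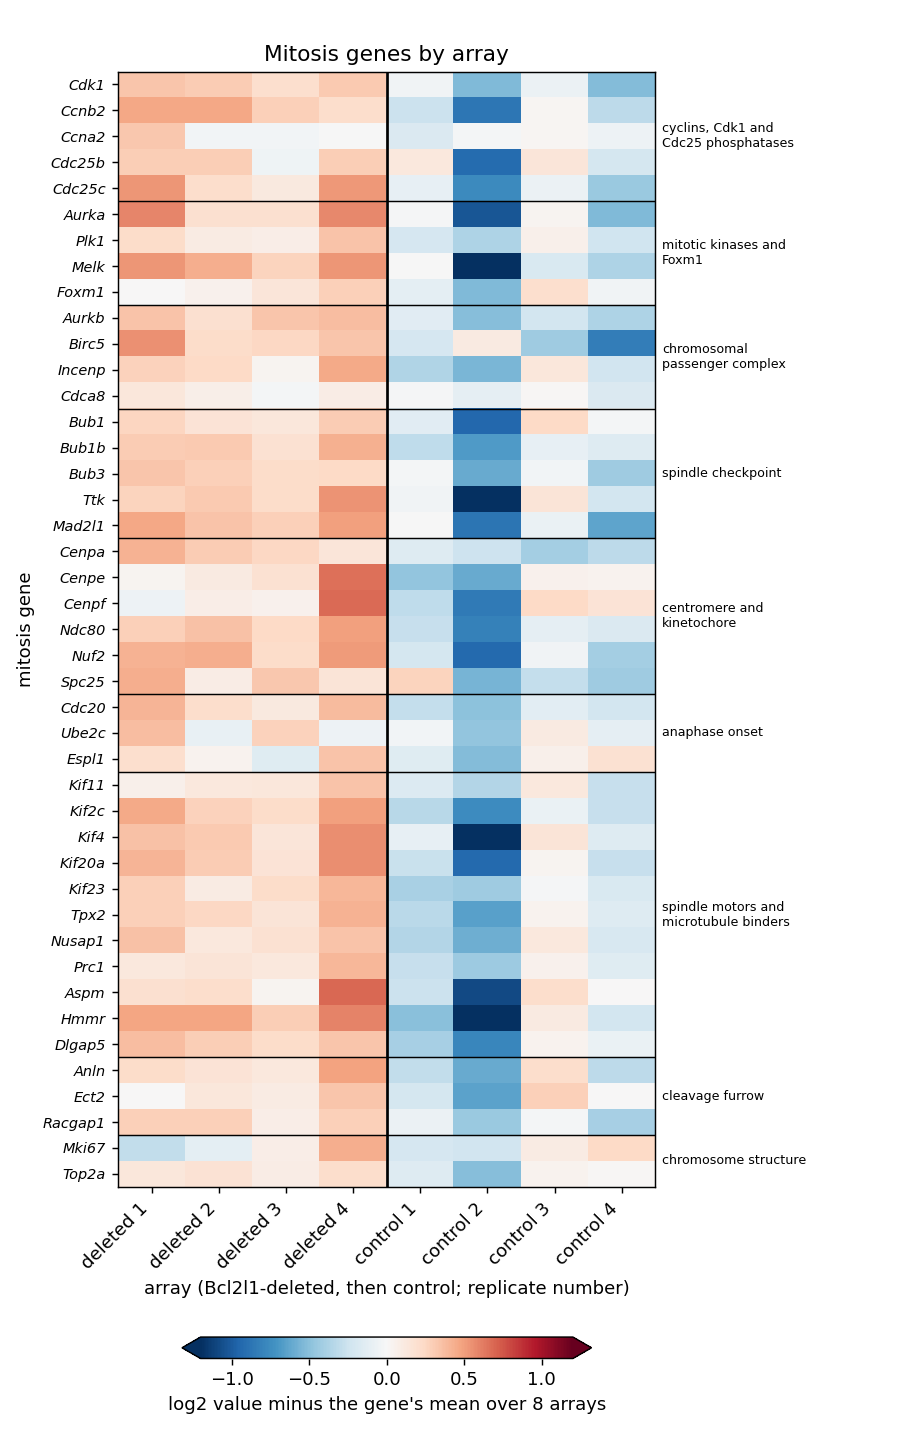
Log2 value of each of the 43 measured mitosis genes on each array, minus that gene's mean over the 8 arrays (colour), with the 4 Bcl2l1-deleted arrays left of the 4 controls and genes grouped by role. Bcl2l1-deleted columns are mostly above the mean and control replicate 2 is the lowest of the 8 arrays for 38 of the 43 genes.

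Single arrays decided how many genes passed. With limma, 0 mitosis genes passed when any 1 of Bcl2l1-deleted replicates 1 to 4 was left out. In turn 27, 28, 28 and 23 then had an unadjusted p under 0.05 (30 with all arrays). Over all 15526 genes tested, 20, 47, 453 and 223 passed in these settings, and 3367, 3404, 4083 and 3725 had an unadjusted p under 0.05. Without control replicates 1 to 4 the number of mitosis genes passing was 12, 16, 3 and 0 (28 at an unadjusted p under 0.05 for the last). Over all genes 1999, 2100, 461 and 157 then passed (4014 at an unadjusted p under 0.05 for the last). The median relative change of the mitosis genes lay between 0.31 and 0.42 in these 8 settings. The count also moved with the scaling. Melk and Nuf2, 2 genes, rose once every array was centred on its median gene (2.51% of all genes), 37 of the 43 then had a fitted change above 0, and over all genes 390 rose and 699 fell. Birc5 alone rose with the receptor median in the model, 40 of the 43 had a fitted change above 0, and over all genes 273 rose and 404 fell. Centring on all probe sets gave 16 mitosis genes, with 1337 and 171 over all genes.

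The same arrays tended to be highest or lowest. Among the Bcl2l1-deleted arrays, replicate 4 was highest for 26 genes and replicate 1 for 16, while replicate 3 was lowest for 27. Among the controls, replicate 3 was highest for 33 and replicate 2 lowest for 39. The median mitosis gene stood 2.38, 2.28, 2.20 and 2.36 log2 units above the median gene tested on Bcl2l1-deleted replicates 1 to 4, against 1.94, 1.92, 2.12 and 1.75 on control replicates 1 to 4. The mitosis genes varied little among the Bcl2l1-deleted tumours, with a median SD of 0.13, against 0.31 among the controls and 0.19 among the 3 controls without replicate 2. Over all genes tested the corresponding medians were 0.16, 0.33 and 0.19.

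The genes were chosen by name, and the sequence of their promoters played no part in that. The cell cycle genes homology region (CHR), searched as TTTGAA and as TTTAAA, is known as a site through which the MuvB complexes, with B-MYB and FOXM1, time expression late in the cell cycle, and CCAAT is the box bound by the activator NF-Y. RefSeq windows from 250 bases before to 50 bases after the annotated start (GRCm38.p6) were given for 37 of the 45 genes, and both strands were searched. TTTGAA was present for 28 of the 37 (75.7%), against 18.5% of 17491 protein-coding genes, and TTTAAA for 10 (27.0%), against 13.8%. CCAAT was present for 29 (78.4%), against 42.3%, and 2 or more copies in 1 window for 20 (54.1%), against 14.6%. TTTGAA and CCAAT occurred together for 25 genes (67.6%), against 8.37%. Both motifs were also frequent elsewhere in the mitotic machinery. Among 89 genes of a further list of the mitotic machinery, described further on, TTTGAA was present for 39.3%, CCAAT for 58.4% and both for 25.8%, and the difference between the lists was not tested. Of 4 E2F-type motifs (TTTGGCGC, TTTCCCGC, TTTCGCGC and TTTGCCGC), only TTTCGCGC was found, for 1 gene (2.70%, against 0.526%). Across the windows of these genes 1 pair of matches of different motifs overlapped.

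The TTTGAA matches clustered at the start. From 50 bases before it to the end of the window, 26 of the 37 genes (70.3%) held one, against 29.2% of the further list and 4.59% of protein-coding genes. CCAAT lay further upstream, most often in the 50 bases before the start, for 20 genes (54.1%, against 10.4%), and in the 50 bases before those, for 17 (45.9%, against 14.8%). A match is a description of the letters and was not tested for function. The following 160-base windows, 5′ to 3′ and ending 30 bases into the transcript, have TTTGAA and CCAAT in capitals on either strand (TTCAAA and ATTGG where the match is on the other strand). The first 6 show the arrangement in Cdc20 and Cenpa, which rose, in Hmmr, with the largest change when all arrays were used, and in Cdk1, Ccnb2 and Top2a. Nuf2 and Mad2l1, which also rose, had neither motif in the 300 bases searched.
Cdc20 (chr4:118437314-118437473, minus strand): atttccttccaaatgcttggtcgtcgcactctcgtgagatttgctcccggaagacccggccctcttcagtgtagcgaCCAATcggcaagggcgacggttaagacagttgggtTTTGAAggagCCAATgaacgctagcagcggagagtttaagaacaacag
Cenpa (chr5:30666756-30666915, plus strand): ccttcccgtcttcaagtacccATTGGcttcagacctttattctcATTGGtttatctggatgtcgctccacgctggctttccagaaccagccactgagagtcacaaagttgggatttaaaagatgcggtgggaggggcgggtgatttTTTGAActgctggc
Hmmr (chr11:40733408-40733567, minus strand): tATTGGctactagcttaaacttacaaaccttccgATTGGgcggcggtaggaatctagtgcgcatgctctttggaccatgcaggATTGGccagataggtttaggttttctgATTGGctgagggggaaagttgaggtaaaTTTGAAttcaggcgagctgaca
Cdk1 (chr10:69352883-69353042, minus strand): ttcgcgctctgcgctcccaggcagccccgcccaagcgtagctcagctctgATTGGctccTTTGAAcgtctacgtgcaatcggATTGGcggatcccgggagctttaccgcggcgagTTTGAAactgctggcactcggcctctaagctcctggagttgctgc
Ccnb2 (chr9:70421525-70421684, minus strand): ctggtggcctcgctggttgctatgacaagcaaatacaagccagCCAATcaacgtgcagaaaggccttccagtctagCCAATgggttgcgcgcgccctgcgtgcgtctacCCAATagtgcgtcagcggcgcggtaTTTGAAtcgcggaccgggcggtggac
Top2a (chr11:99024160-99024319, minus strand): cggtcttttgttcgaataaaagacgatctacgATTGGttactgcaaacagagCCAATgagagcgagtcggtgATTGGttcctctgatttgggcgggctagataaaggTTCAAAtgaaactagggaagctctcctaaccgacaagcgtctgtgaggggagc
Nuf2 (chr1:169531435-169531594, minus strand): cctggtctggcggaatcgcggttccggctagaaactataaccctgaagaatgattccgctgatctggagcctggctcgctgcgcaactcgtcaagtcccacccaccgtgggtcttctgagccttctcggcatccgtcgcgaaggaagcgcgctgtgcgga
Mad2l1 (chr6:66535091-66535250, plus strand): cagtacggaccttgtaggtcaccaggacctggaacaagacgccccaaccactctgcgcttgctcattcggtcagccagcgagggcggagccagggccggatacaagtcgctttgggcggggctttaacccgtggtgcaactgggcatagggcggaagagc

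**Figure D2:**
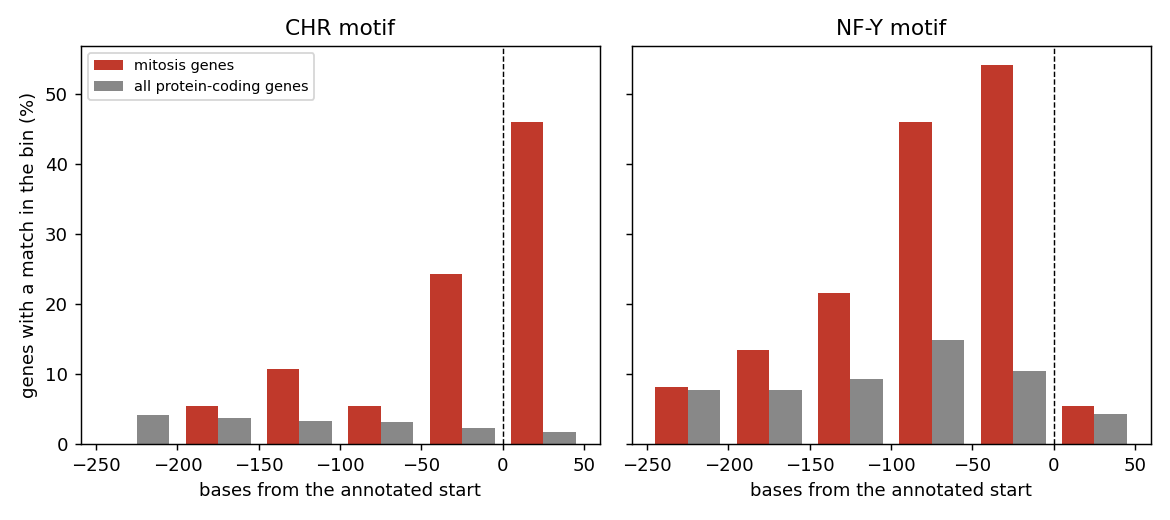
Share of the 37 mitosis genes and of 17491 protein-coding genes (vertical axis, percent) with a match to the CHR motif (TTTGAA) or the NF-Y motif (CCAAT) in each 50-base bin of the promoter window (horizontal axis, bases from the annotated start, dashed line). The CHR motif peaks in the first 50 transcribed bases, at 45.9% of mitosis genes against 1.76%, and the NF-Y motif in the 50 bases before the start.

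Among the genes that drive entry into mitosis, Cdk1, Ccnb2 and Cdc25c had every Bcl2l1-deleted array above every control, but none of the 5 measured genes passed with all arrays, and 3 had an unadjusted limma p under 0.05. Cdk1 encodes the kinase that starts mitosis. It had 10.16, 10.13, 10.03 and 10.14 in Bcl2l1-deleted replicates 1 to 4, against 9.78, 9.30, 9.76 and 9.31 in control replicates 1 to 4. The Bcl2l1-deleted arrays lay close together, and controls 2 and 4 were the low ones (relative log2 change 0.40 ± 0.16, adjusted p = 0.0587). Ccnb2, which encodes the CDK1 partner cyclin B2, averaged 10.28 ± 0.13 in the Bcl2l1-deleted tumours and 9.58 ± 0.37 in the controls (SD, n = 4 each, limma adjusted p = 0.0539). Cdc25c, which encodes a phosphatase that activates CDK1, averaged 7.93 ± 0.21 in the Bcl2l1-deleted tumours and 7.23 ± 0.33 in the controls (SD, n = 4 each, limma adjusted p = 0.0560). These 3 rose without control replicate 2 (adjusted p = 0.0449, 0.0287 and 0.0431). Ccna2, which encodes cyclin A2, had overlapping groups, with 10.25 to 10.61 in the Bcl2l1-deleted tumours against 10.11 to 10.31 in the controls (relative log2 change -0.05, adjusted p = 0.577). The groups also overlapped for Cdc25b, another activating phosphatase, with 7.39 to 7.74 in the Bcl2l1-deleted tumours against 6.52 to 7.59 in the controls (relative log2 change 0.25, adjusted p = 0.235).

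Of the mitotic kinases and Foxm1, none of 4 passed, although 3 had an unadjusted limma p under 0.05 and groups that did not overlap. Melk encodes a kinase abundant in dividing progenitors. It had 8.93, 8.84, 8.67 and 8.93 in Bcl2l1-deleted replicates 1 to 4, against 8.40, 7.21, 8.22 and 8.03 in control replicates 1 to 4. Control replicate 2 was lowest by a wide margin, and the other controls were still below every Bcl2l1-deleted array (relative log2 change 0.71 ± 0.24, adjusted p = 0.0509, and 0.0173 without control replicate 2). Aurka, which encodes the Aurora kinase of the spindle poles, had a relative log2 change of 0.59 ± 0.24 (adjusted p = 0.0723), with 9.35 to 9.74 in the Bcl2l1-deleted tumours against 8.13 to 9.19 in the controls. Plk1, the Polo-like kinase gene, had a smaller one of 0.20 ± 0.15 (adjusted p = 0.126), and its lowest Bcl2l1-deleted array lay 0.03 above its highest control. Foxm1 encodes the transcription factor that acts at CHR promoters. It had 9.15, 9.20, 9.29 and 9.43 in Bcl2l1-deleted replicates 1 to 4, against 9.03, 8.62, 9.35 and 9.10 in control replicates 1 to 4. The groups overlapped through control replicate 3 (relative log2 change 0.07 ± 0.18, adjusted p = 0.353, with a fitted change of -0.02 once arrays were centred on their median gene).

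In the chromosomal passenger complex, which corrects wrong attachments of chromosomes to the spindle, Aurkb rose. It encodes the kinase of the complex. Its values were 10.50, 10.35, 10.49 and 10.53 in Bcl2l1-deleted replicates 1 to 4, against 10.02, 9.65, 9.94 and 9.79 in control replicates 1 to 4. The Bcl2l1-deleted arrays lay close together, and the gap to the highest control was 0.34 (relative log2 change 0.45 ± 0.14, adjusted p = 0.0354). Birc5, which encodes survivin, a member of the complex named for its kinship to inhibitors of apoptosis, averaged 7.94 ± 0.15 in the Bcl2l1-deleted tumours and 7.26 ± 0.40 in the controls (SD, n = 4 each, limma adjusted p = 0.0645). Its groups did not overlap. Its highest control was replicate 2, at 7.71, and without that array it rose, with a relative log2 change of 0.74 (adjusted p = 0.0157). The scaffold gene Incenp had a relative log2 change of 0.33 ± 0.18 (adjusted p = 0.0964), and Cdca8, which encodes borealin, one of -0.04 ± 0.13 (adjusted p = 0.487). Both overlapped between the groups, and the fitted change of Cdca8 was 0.14, but -0.01 after quantile normalization.

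The spindle checkpoint genes Mad2l1 and Bub1b rose, 2 of 5. Mad2l1 encodes MAD2, the checkpoint protein that binds and holds back CDC20. It had 9.41, 9.29, 9.23 and 9.44 in Bcl2l1-deleted replicates 1 to 4, against 8.94, 8.07, 8.86 and 8.31 in control replicates 1 to 4. Controls 2 and 4 were the lowest, and the relative log2 change was 0.63 ± 0.20 (adjusted p = 0.0457). Bub1b encodes BUBR1, another inhibitor of the anaphase-promoting complex. It had 9.61, 9.62, 9.48 and 9.73 in Bcl2l1-deleted replicates 1 to 4, against 9.00, 8.62, 9.20 and 9.15 in control replicates 1 to 4. The 3 upper controls lay between 9.00 and 9.20, below the lowest Bcl2l1-deleted array by 0.28 (relative log2 change 0.45 ± 0.16, adjusted p = 0.0492). Bub3, which brings the BUB proteins to the kinetochore, had groups that did not overlap (relative log2 change 0.36 ± 0.17, adjusted p = 0.0724), as did the checkpoint kinase gene Ttk (0.50 ± 0.27, adjusted p = 0.127). Bub1 overlapped through control replicate 3 (0.26 ± 0.23, adjusted p = 0.222). Control replicate 2 was far below the other controls for Ttk and Bub1, at 7.04 against 8.06 to 8.44 and at 7.48 against 8.28 to 8.66, and without it their relative changes were 0.28 and 0.10.

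At the centromere and kinetochore, Cenpa, Ndc80 and Nuf2 rose, 3 of 6. Cenpa encodes the histone that marks the centromere. It had 9.37, 9.26, 9.20 and 9.10 in Bcl2l1-deleted replicates 1 to 4, against 8.80, 8.71, 8.55 and 8.64 in control replicates 1 to 4. The spread was alike, with an SD of 0.11 in the Bcl2l1-deleted tumours and 0.10 in the controls, and control replicate 2 was not the lowest (relative log2 change 0.39 ± 0.14, adjusted p = 0.0415, and a relative log2 change of 0.49 without control replicate 2). Ndc80 and Nuf2 encode partners in the complex that grips microtubules. Ndc80 had 8.78, 8.85, 8.74 and 8.99 in Bcl2l1-deleted replicates 1 to 4, against 8.22, 7.69, 8.39 and 8.32 in control replicates 1 to 4. Nuf2 had 9.31, 9.32, 9.11 and 9.40 in Bcl2l1-deleted replicates 1 to 4, against 8.68, 7.96, 8.85 and 8.48 in control replicates 1 to 4. Both had control replicate 2 as the lowest array and controls 1, 3 and 4 below every Bcl2l1-deleted array (relative log2 changes 0.52 ± 0.18 and 0.62 ± 0.20, adjusted p = 0.0459 and 0.0414). Spc25, from the same complex, overlapped through control replicate 1, at 8.99 (relative log2 change 0.33 ± 0.19, adjusted p = 0.116). The large motor gene Cenpe and the matrix gene Cenpf stood highest on Bcl2l1-deleted replicate 4, at 8.81 and 8.89, and both overlapped between the groups (adjusted p = 0.146 and 0.327).

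Of the genes that trigger anaphase, Cdc20 rose. It encodes the activator of the anaphase-promoting complex. It had 10.57, 10.37, 10.28 and 10.54 in Bcl2l1-deleted replicates 1 to 4, against 9.87, 9.67, 10.03 and 9.94 in control replicates 1 to 4. The gap between the groups was 0.24 (relative log2 change 0.39 ± 0.15, adjusted p = 0.0486). Ube2c, the ubiquitin-conjugating enzyme of the same complex, and Espl1, which encodes separase, the protease that cuts cohesin, overlapped between the groups (relative log2 changes 0.08 ± 0.18 and 0.04 ± 0.19, adjusted p = 0.341 and 0.438).

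**Figure D3:**
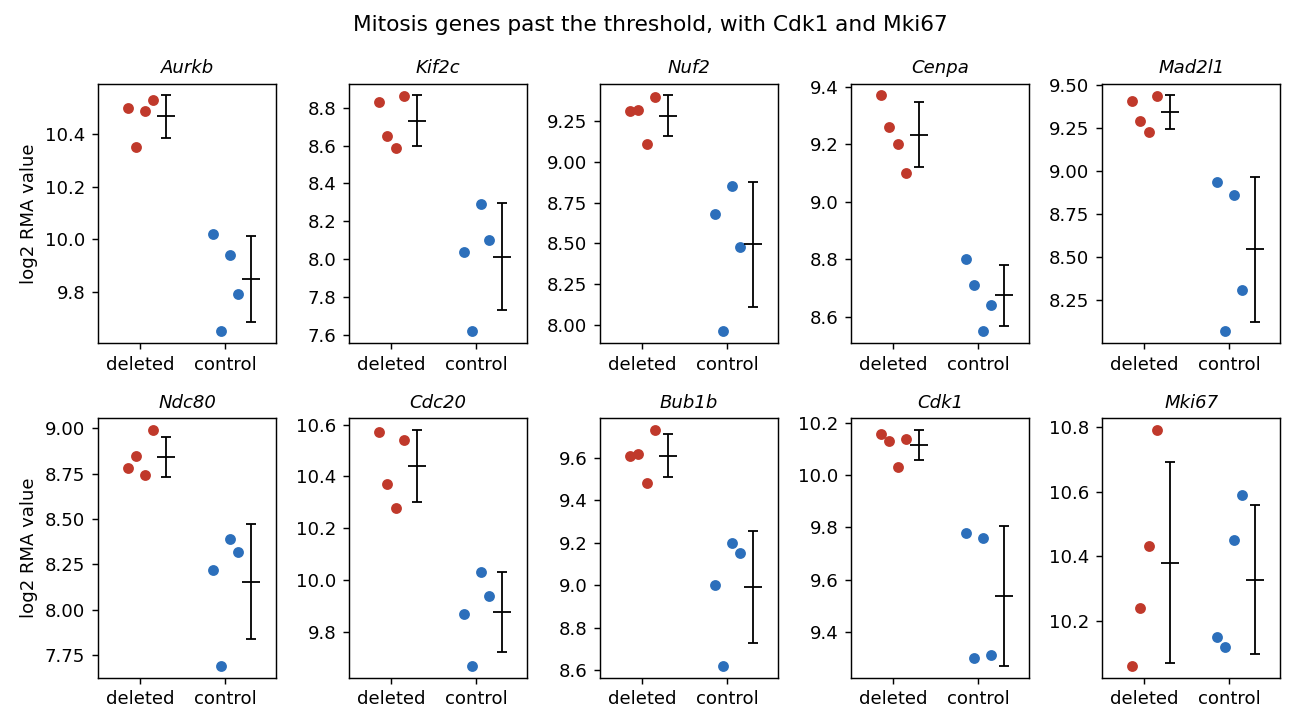
Log2 RMA values (vertical axes, each panel on its own scale, none starting at 0) of the 8 mitosis genes that rose, with Cdk1 and Mki67, in the 4 Bcl2l1-deleted tumours (left in each panel) and the 4 controls. Points are arrays and bars are the mean with 1 SD. The groups do not overlap in the first 9 panels and overlap for Mki67.

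Among 11 motors and microtubule-binding proteins of the spindle, Kif2c rose, 9 had an unadjusted limma p under 0.05, and 8 had groups that did not overlap. Kif2c encodes MCAK, a kinesin that takes microtubules apart at centromeres. It had 8.83, 8.65, 8.59 and 8.86 in Bcl2l1-deleted replicates 1 to 4, against 8.04, 7.62, 8.29 and 8.10 in control replicates 1 to 4. The lowest Bcl2l1-deleted array was 0.29 above the highest control (relative log2 change 0.54 ± 0.17, adjusted p = 0.0386). Hmmr encodes a hyaluronan receptor that also binds spindle microtubules, and with all arrays it had the largest change of the 43 genes. Without control replicate 2 the largest was that of Birc5 (relative log2 change 0.74, against 0.58 for Hmmr), which also led with array weights and with the receptor median in the model, and Melk led without control replicate 1 and with the Xist level in the model. Hmmr had 6.45, 6.45, 6.27 and 6.57 in Bcl2l1-deleted replicates 1 to 4, against 5.47, 4.76, 6.08 and 5.75 in control replicates 1 to 4. The controls were spread more widely than the Bcl2l1-deleted arrays, and its relative log2 change of 0.75 ± 0.25 missed the threshold (adjusted p = 0.0520, and 0.0259 without control replicate 2). Kif20a, a kinesin of the central spindle, had a relative log2 change of 0.55 ± 0.21 (adjusted p = 0.0604), and Dlgap5, a stabilizer of kinetochore fibres, one of 0.44 ± 0.19 (adjusted p = 0.0717). Both rose without control replicate 2 (adjusted p = 0.0344 and 0.0472). Tpx2, which activates Aurora A on the spindle, Kif23 and Prc1, which bundle microtubules at the midzone, and Nusap1 had no overlap between groups and relative log2 changes of 0.38, 0.33, 0.23 and 0.33 (adjusted p = 0.0731, 0.0696, 0.119 and 0.0926). Kif11, which pushes the spindle poles apart, the chromosome-bound kinesin gene Kif4 and the spindle pole gene Aspm overlapped (relative log2 changes 0.16, 0.52 and 0.39). Of these, Kif4 had 6.20 and Aspm 7.33 on control replicate 2, and their relative changes without it were 0.29 and 0.21.

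None of the 3 genes of the cleavage furrow passed, 2 of them with an unadjusted limma p under 0.05. Racgap1, which encodes part of the centralspindlin complex, had 9.97 to 10.17 in the Bcl2l1-deleted tumours against 9.44 to 9.86 in the controls (relative log2 change 0.29 ± 0.16, adjusted p = 0.0846). Anln, which encodes the scaffold anillin, and Ect2, which encodes the exchange factor that activates RhoA at the furrow, overlapped between the groups (relative log2 changes 0.33 ± 0.19 and 0.11 ± 0.20, adjusted p = 0.109 and 0.347).

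The common proliferation markers Mki67 and Top2a did not pass, and neither had an unadjusted limma p under 0.05. Mki67 encodes the chromosome-coating protein Ki-67. It had 10.06, 10.24, 10.43 and 10.79 in Bcl2l1-deleted replicates 1 to 4, against 10.15, 10.12, 10.45 and 10.59 in control replicates 1 to 4. The groups overlapped over most of their range, and its relative log2 change of -0.12 ± 0.19 was the lowest of the 43 with all arrays (adjusted p = 0.872). Its fitted change was 0.05 and turned negative in 9 of 22 alternative settings, with values between -0.21 and 0.22. Top2a encodes the topoisomerase that untangles chromosomes. It had 10.01, 10.05, 9.96 and 10.08 in Bcl2l1-deleted replicates 1 to 4, against 9.72, 9.36, 9.92 and 9.89 in control replicates 1 to 4. Its Bcl2l1-deleted arrays lay 0.04 above the highest control, with a relative log2 change of 0.13 ± 0.16 (adjusted p = 0.219).

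**Figure D4:**
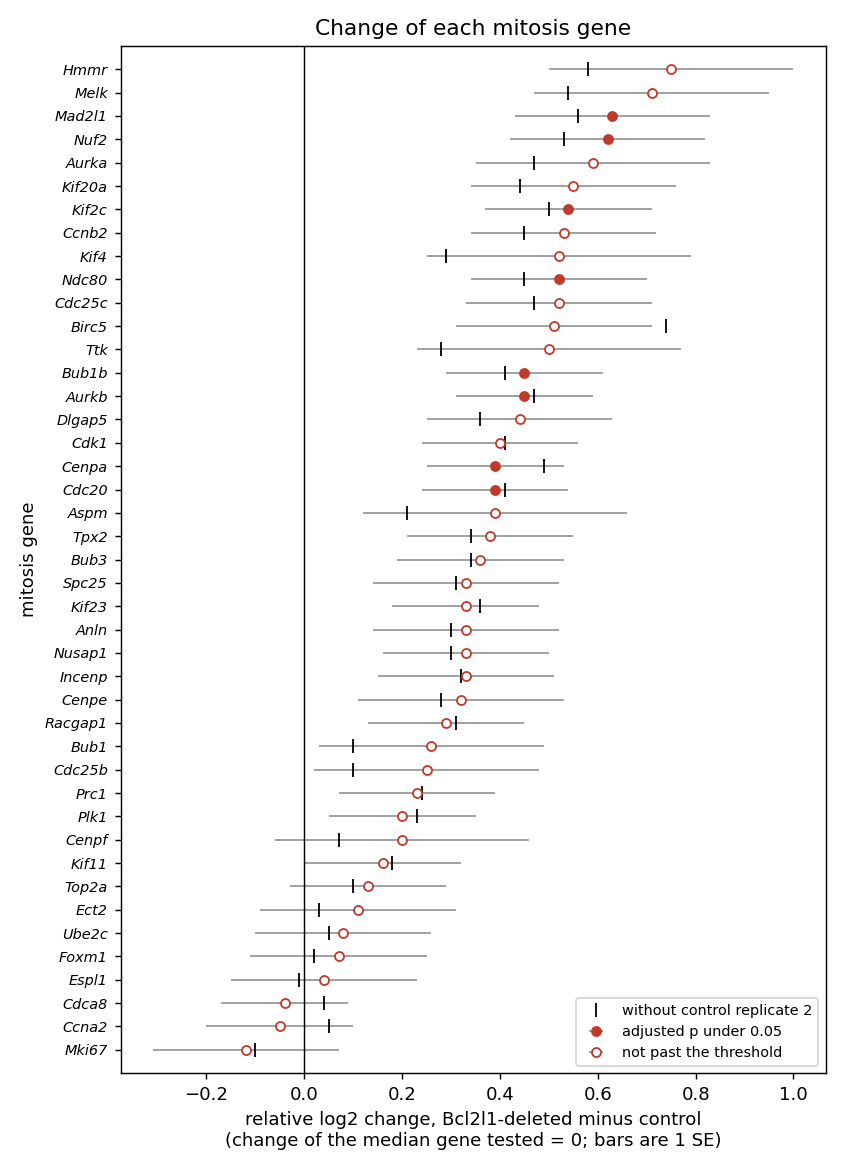
Relative log2 change of each of the 43 mitosis genes (horizontal axis, Bcl2l1-deleted minus control, median gene tested at 0) with bars of 1 SE. Filled circles passed an adjusted p of 0.05, and ticks give the value without control replicate 2. The values run from -0.12 for Mki67 to 0.75 for Hmmr.

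A further list of 105 genes of the mitotic machinery, outside the 45, was read from the same fit, and 97 were measured and tested. The list was chosen with earlier results of these data known, so it is not an independent check. Of these, 11 rose (11.3%, against 4.93% of all genes), none fell and 86 did not pass. Their median relative change was 0.30, and in 50 every Bcl2l1-deleted array lay above every control (51.5%, against 19.0%). Cdca5 encodes sororin, which keeps sister chromatids together. It averaged 9.43 ± 0.03 in the Bcl2l1-deleted tumours and 8.44 ± 0.25 in the controls (SD, n = 4 each), a relative log2 change of 0.82 ± 0.16 (adjusted p = 0.0140). Haus7, a subunit of the augmin complex that branches spindle microtubules, had the largest change of the list with all arrays, averaging 7.73 ± 0.26 in the Bcl2l1-deleted tumours and 6.51 ± 0.51 in the controls (SD, n = 4 each, relative log2 change 1.04, adjusted p = 0.0247).

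The other genes of that list that rose came from several structures. Cenpk, Cenpl and Cenpw, of the inner centromere network that sits on CENP-A chromatin, had relative log2 changes of 0.65, 0.63 and 0.51 (adjusted p = 0.0368, 0.0327 and 0.0279), 3 of 13 measured genes of that structure. Gtse1, Ckap2, Shcbp1 and Pbk, placed with the centrosome and spindle pole, had 0.73, 0.72, 0.47 and 0.46 (adjusted p = 0.0158, 0.0483, 0.0393 and 0.0352). The chromokinesin gene Kif22 had 0.48 and the centrosome kinase gene Nek2 0.44 (adjusted p = 0.0387 and 0.0369). No condensin subunit, outer kinetochore gene or subunit and regulator of the anaphase-promoting complex passed, of 7, 15 and 14 measured. At an unadjusted limma p under 0.05 were 2, 13 and 5 (28.6%, 86.7% and 35.7%, against 30.5% of all genes tested). The median relative changes of these 3 lists were 0.24, 0.29 and 0.13. Ncaph, a condensin subunit, had 0.57 (adjusted p = 0.0803), Spc24, Ska1 and Ska3 of the outer kinetochore had 0.58, 0.62 and 0.77 (adjusted p = 0.0611, 0.0649 and 0.0578), while the condensin cores Smc2 and Smc4 had 0.21 and 0.26 (adjusted p = 0.184 and 0.136). Anapc5, Anapc10 and Cdc26 of the anaphase-promoting complex had 0.21, 0.32 and 0.38 (adjusted p = 0.106, 0.103 and 0.115). The kinesin genes Kif15 and Kif20b had 0.56 and 0.65 (adjusted p = 0.0680 and 0.0803), and the mitotic kinase genes Mastl and Haspin 0.65 and 0.30 (Mastl just short of the threshold with an unadjusted limma p of 0.00327, Haspin with an adjusted p of 0.0954). Sgo1, the protector of centromeric cohesin, had 0.40 and Wapl, its releaser, 0.09 (adjusted p = 0.0560 and 0.442). Leaving out Bcl2l1-deleted replicate 1, 2, 3 or 4 left 0, 0, 6 and 2 genes of the list past the threshold (limma, with 41 and 43 at an unadjusted p under 0.05 for the first pair), and leaving out control replicate 1, 2, 3 or 4 left 19, 26, 5 and 1. Over all genes tested the counts in the same order were 20, 47, 453 and 223, and then 1999, 2100, 461 and 157.

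**Figure D5:**
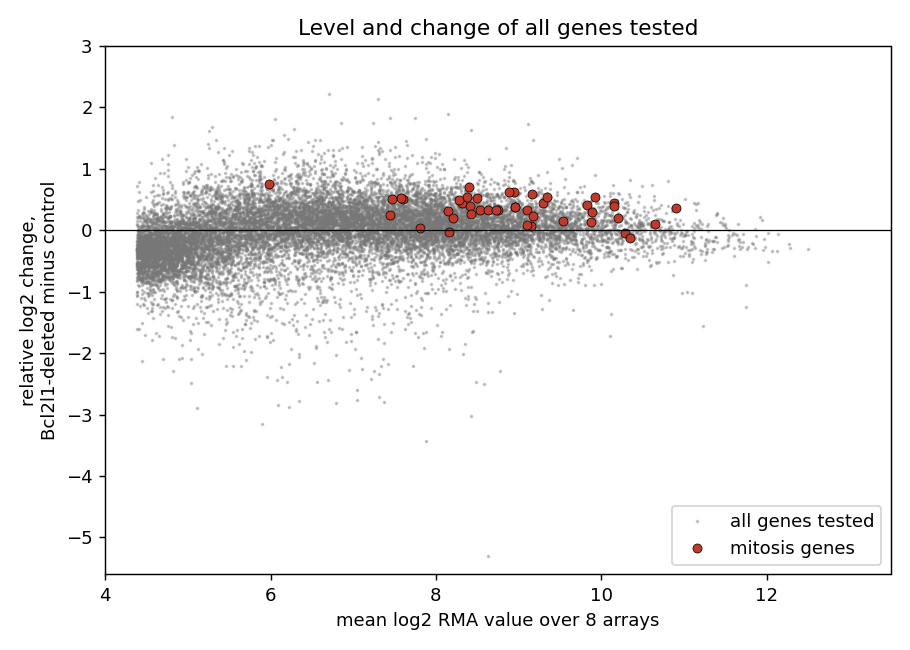
Mean log2 RMA value over the 8 arrays (horizontal axis) and relative log2 change, Bcl2l1-deleted minus control (vertical axis), of the 15526 genes tested (grey) and the 43 mitosis genes (red). The mitosis genes have mean levels of 5.98 to 10.90, where the median of all genes is 0.09, and 40 of them lie above 0.

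Markers of several cell types also differed between the groups, and their part in the result was not tested. Counts of markers are to be read against all genes tested, of which 4.93% rose and 1.60% fell. Of all genes tested, 30.5% had an unadjusted limma p under 0.05. Without control replicate 2, 1390 of the 15526 genes rose and 710 fell. None of 10 markers of granule neuron progenitors passed (limma, 1 at an unadjusted p under 0.05). Their summed log2 values were 100.3 to 101.3 in the Bcl2l1-deleted tumours against 96.2 to 101.9 in the controls, or 100.9 to 101.9 without control replicate 2. Their median relative log2 change was -0.22 (-0.20 without that array), and 3 of the 10 were above 0. Atoh1, their defining transcription factor, had 11.45 to 11.85 in the Bcl2l1-deleted tumours against 10.94 to 11.53 in the controls (relative log2 change 0.29, adjusted p = 0.108), the highest change of the list with all arrays. Gli1, a target of the hedgehog pathway, had 8.06 to 8.35 in the Bcl2l1-deleted tumours against 8.21 to 8.33 in the controls (relative log2 change -0.26, adjusted p = 0.652), and Zic1, a transcription factor of the granule lineage, had a relative log2 change of -0.38 (adjusted p = 0.325).

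Of 10 markers of differentiating granule neurons 7 fell, with sums of 64.0 to 76.7 in the Bcl2l1-deleted tumours against 78.2 to 88.9 in the controls. Without control replicate 2, 8 fell and the control sums began at 84.2. Of 7 oligodendrocyte markers 2 fell, with sums of 39.5 to 50.8 in the Bcl2l1-deleted tumours against 49.2 to 59.1 in the controls. Without control replicate 2, 4 fell and the control sums were 51.9 to 59.1, so that the groups no longer overlapped. Of 4 choroid plexus markers 2 fell, with sums of 20.9 to 23.2 in the Bcl2l1-deleted tumours against 28.6 to 30.6 in the controls. Most of that gap came from Ttr, which encodes transthyretin and had 5.70 to 6.85 in the Bcl2l1-deleted tumours against 10.95 to 11.48 in the controls (fitted log2 change -5.14). Without Ttr the sums of the other 3, a split made after the values were seen, were 14.91 to 17.45 in the Bcl2l1-deleted tumours against 17.40 to 19.08 in the controls, which overlapped through control replicate 2 (17.90 was the lowest of the other controls). Of 10 microglia markers 6 rose, with sums of 82.0 to 83.5 in the Bcl2l1-deleted tumours against 67.9 to 77.3 in the controls. Of 6 endothelial markers 4 rose, with sums of 43.3 to 43.8 in the Bcl2l1-deleted tumours against 37.6 to 39.8 in the controls, and of 5 astrocyte markers 2 rose, with sums of 48.4 to 51.0 in the Bcl2l1-deleted tumours against 41.8 to 48.7 in the controls. None of 4 Purkinje cell markers passed (limma, 0 at an unadjusted p under 0.05), with sums of 21.3 to 39.1 in the Bcl2l1-deleted tumours against 32.4 to 37.4 in the controls. The lowest marker value was 2.28, for Gabra6, a marker of differentiating granule neurons, on Bcl2l1-deleted replicate 4. The receptor median on that array was 2.92, so the sums include a value below it. The 4 erythroid markers were not analysed here.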

How the data were processed

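Total RNA of 8 whole tumours, 1 per animal, was hybridised to Affymetrix whole-transcript arrays, per the labels' protocols. The authors deposited log2 RMA expression values, made in Partek per the submitters' processing notes. RMA corrects background, normalizes and compresses differences near background. Options, version and genome build: not given in the sources used here. Values ran between 0.68 and 13.2. Groups follow the titles and genotypes, which match; a status label that reads deleted for every sample, controls included, was not used.

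Of 41345 probe sets, 23521 had 1 gene symbol, 1814 several and 16010 none; 23328 matched a RefSeq gene table by Entrez identifier, and 0 symbols changed. Each gene took its brightest probe set, and the dimmest 30% of genes by mean (up to 4.38, 6654 genes) were dropped. The remaining 15526 were tested with limma 3.58.1 (R 4.3.3), Bcl2l1-deleted minus control without covariates, two-sided, Benjamini-Hochberg adjusted over all of them. Each adjusted p comes from this model, or from its named variant. In simulated data of the same layout, the test found 95% of 100 genes shifted by 2 log2 units and 55% of 100 shifted by 1. There were 12 false calls among the unshifted rest of the 15526 genes. Each simulated gene was drawn independently with the same SD in both groups, without a compressed array or a shift between arrays. Smaller shifts were not simulated, and the largest fitted change of a mitosis gene was 0.92. Tables were handled in Python 3.11.15 with pandas 2.3.3.

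The mitosis genes, the further list and the tests were chosen with earlier results of these data known. Values of every array are given for genes past the threshold, for the 10 smallest p-values, for the extremes, and for Mki67, Top2a, Cdk1 and Foxm1. Of the further list, genes past the threshold and the 3 smallest p-values of each structure are named. Alternatives covered filters, variance models, scalings, covariates, probe set choice, a replicate block and each array left out. Whether animals shared a litter or a processing batch is not given in the labels, so p-values measure the spread between these samples only.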

Additional observations from a re-analysis of the deposited data

Results flagged for a closer look

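Of 150 groups of 4 arrays examined, 6 (4%) held an array whose gap to its nearest neighbour, divided by the whole range of the group, exceeded Dixon's 95% critical value. Chance gives about 1 in 20. The groups examined did not cover every measured gene of the further list, so the 4% does not describe that whole list. Cenpn, which was not among them, had 8.04 on control replicate 2 against 9.06 to 9.14 on the other controls. No explanation was tested. Of the mitosis genes, Ccna2 was high on Bcl2l1-deleted replicate 1, at 10.61 against 10.25 to 10.28 on the other Bcl2l1-deleted arrays (ratio 0.929). Cdc25b was low on Bcl2l1-deleted replicate 3, at 7.39 against 7.74 on the others (ratio 0.989). Racgap1 was low on that array too, at 9.97 against 10.17 (ratio 0.968). Prc1 was high on Bcl2l1-deleted replicate 4, at 9.57 against 9.30 to 9.33 (ratio 0.866). Of the genes examined from the further list, Sgo1 was low on Bcl2l1-deleted replicate 3, at 8.18 against 8.38 to 8.40 (ratio 0.920). Cenpk was low on control replicate 2, at 5.16 against 5.84 to 5.86 on the other controls (ratio 0.975).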

How the results depend on the processing

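The median relative change of the mitosis genes stayed positive in each alternative, at 0.31 to 0.42 with 1 array left out and at 0.27 to 0.37 otherwise, except 0.50 with no filter on dim genes. Of 946 values of single mitosis genes in 22 alternatives, 779 kept their direction and side of the threshold. Another 98 no longer passed the threshold, 47 newly passed it and 22 changed sign. The 98 all came from the 8 genes that passed with all arrays, since only these could lose that. The 8 passed in 6 (Cdc20) to 13 (Nuf2) of the 22 alternatives. The counts past the threshold depended on the choices, and the cause was not tested. Leaving out 1 array gave 20 to 2100 genes in all, 0 to 16 mitosis genes and 0 to 26 genes of the further list, against 1013, 8 and 11 with all arrays. With no filter the counts were 548, 0 (limma, 30 at an unadjusted p under 0.05) and 5. With array weights they were 3494, 20 and 35. At an adjusted p of 0.1 they were 2764, 23 and 39. With the Xist level as a covariate they were 200, 0 (limma, 25 at an unadjusted p under 0.05) and 2. With the replicate block they were 508, 0 (limma, 30 at an unadjusted p under 0.05) and 3. Deviations from the group mean correlated at 0.04, 0.02, -0.13 and 0.05 between same-numbered samples. Between differently numbered samples the correlations ran from -0.24 to 0.22. With so few arrays these values cannot show whether the numbers pair the samples. Centring on the genes tested gave 2 mitosis genes and 5 of the further list, centring on all probe sets 16 and 21, and the receptor covariate 1 and 4. Centring without control replicate 2, chosen after seeing the data, gave 1793 genes and 5 mitosis genes (Melk, Aurkb, Birc5, Cenpa and Nuf2).

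Fitted changes that turned to 0 or below were as follows. After centring on the genes tested Ccna2 had -0.14, Foxm1 -0.02, Cdca8 -0.12, Ube2c 0.00, Espl1 -0.04 and Mki67 -0.21. With control replicate 2 left out as well, Ccna2 had 0.00, Foxm1 -0.03, Cdca8 -0.01, Espl1 -0.05, Ect2 -0.02 and Mki67 -0.15. With the receptor covariate Cdc25b had 0.00, Ect2 -0.01 and Mki67 -0.04. With quantile normalization Cdca8 had -0.01 and Mki67 -0.03. Mki67 also had -0.09 with array weights, -0.04 with the Xist covariate, and, with 1 array left out, values between -0.09 (Bcl2l1-deleted replicate 4) and 0.16, of which -0.01 and -0.02 came without control replicates 1 and 2. The narrow range on control replicate 2 limits what both dim and brighter probe sets can show. Its receptor median was high, at 3.60, while its median gene tested was low, at 6.26 against 6.73 to 6.92 on the other arrays. It was the lowest of the 8 arrays for 38 of the 43 mitosis genes.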
